A study of Mus musculus with 12 samples.

Results

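The genes described here encode the collagens, the laminins and the integrins, which are the scaffold of the extracellular matrix and the cell surface receptors that grip it. They were chosen by gene symbol alone, as every symbol of the form of a collagen chain, a laminin chain or an integrin subunit. This gave 82 of the 19037 genes in the expression table, made up of 44 collagen, 11 laminin and 27 integrin genes. The data are RNA-seq of AML12, an immortalised mouse hepatocyte line, with 12 libraries in 4 groups of 3. The groups were control cells, cells given FK228 (romidepsin, an inhibitor of class I histone deacetylases, HDACs, labelled HDI), cells overexpressing YF mutants of class I HDACs, and cells with both. All groups were AML12 cells, a single line. The groups without YF have sample descriptions starting in GFP, whose meaning no label gives. The dose of FK228, its duration and the identity of the mutated HDACs are unknown here. Since no label names separate cultures, a p-value reflects how much the sequenced libraries differ, and part of that may be technical.

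Collagens are triple helices of alpha chains: fibrillar collagens build fibres, collagen IV builds the network of basement membranes, and others link or decorate these. Laminins are cross-shaped trimers of an alpha, a beta and a gamma chain that give the basement membrane its cell-binding surface. Integrins are pairs of an alpha and a beta subunit that bind collagen, laminin or the RGD motif of fibronectin and related ligands, and connect them to the actin cytoskeleton. In liver, hepatocytes lie on a sparse matrix, and much of the fibrillar collagen of fibrosis comes from stellate cells.

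Library totals lay between 23664436 and 26122987 counts, and 13346 genes had enough counts to be tested. The hepatocyte identity of the line was partial at the RNA level: Hnf4a, a hepatocyte transcription factor, stood at 178 ± 7.51 CPM (counts scaled to a common library size, mean ± SD, n = 3) in control, and the albumin gene Alb at 0.0387, 0.0385 and 0.0389 CPM, about 1 count per library. The summed level of 10 hepatocyte markers was 1128 to 1238 CPM in control libraries, 594 to 695 with FK228, 1125 to 1196 with YF and 536 to 568 with FK228 plus YF. Single markers moved both ways. Of the 9 tested, 6 fell and 1 rose with FK228, beside 35.5% and 33.2% of genes tested. With YF 4 fell and 2 rose, beside 14.6% and 18.0%, and with both 7 fell and 1 rose, beside 38.6% and 38.8%. Some markers of other cells moved with FK228 as well. The 9 stellate markers found summed to 6.66 to 9.13 CPM in control and 26.2 to 27.7 with FK228, 11.2 to 16.8 with YF and 29.9 to 35.9 with both. Lrat was at 0 in the 3 treated groups, and Ngfr in control and FK228 libraries. Only 3 stellate markers had enough counts to be tested. Of these, 2 were called higher with FK228, 1 with YF and 3 with both, beside 33.2%, 18.0% and 38.8% of genes tested. The 10 fibroblast markers summed to 597 to 628 CPM in control and 738 to 793 with FK228, 528 to 539 with YF and 626 to 665 with both, nearly all of it Vim, while Twist1 was at 0 in the 3 treated groups and Mgp in all but the combination. The 10 endothelial markers summed to 3.64 to 5.05 CPM over the libraries of the 4 groups, but single ones moved. Only 2 were tested, and neither was called with YF. With FK228 1 rose and 1 fell, beside 33.2% and 35.5% of genes tested. The same numbers did so with both, beside 38.8% and 38.6%. The 10 macrophage and leukocyte markers summed to 136 to 182 CPM in control, 46.6 to 51.4 with FK228, 108 to 130 with YF and 60.6 to 70.8 with both, with Clec4f at 0 in control and FK228 libraries and Cd3e at 0 in both YF groups. Most of the control sum was Cd14 (154 ± 23.0 CPM, against 21.2 ± 1.90 with FK228), the 1 marker of 5 tested that fell with FK228, while Cd68, Csf1r and Lyz2 rose. The 8 cholangiocyte markers found summed to 5106 to 5165, 5667 to 6068, 5581 to 5796 and 4453 to 5265 CPM in the 4 groups. Most of that was Spp1 (4180.0 ± 128 CPM in control), the 1 of 7 tested that rose with FK228 or with YF, while 4 of 7, among them Krt19, fell in each. The part of these markers in the results below was not tested, and in bulk RNA fewer cells of a type and less RNA per cell cannot be told apart.

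Of the 82 genes, 54 passed the count filter: 24 collagens, 9 laminins and 21 integrins. The 28 others were close to silent, with highest group means of 0.0406 to 0.372 CPM for 20 collagens, 0.207 to 0.221 CPM for Lama2 and Lama4, and 0.014 to 0.275 CPM for 6 integrins. Col1a2 and Col3a1, chains of the main fibrillar collagens of scar, were among them, with 10 and 8 counts over the 12 libraries. Levels between genes are compared on the deposited TPM scale, which corrects for length and for the library total.

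Collagen RNA in control cells was mostly that of Col18a1, the source of endostatin and a basement membrane collagen. It stood at 183 ± 7.56 TPM, 59.0% of the summed collagen level of 310 ± 11.2 TPM. Col4a1 followed at 39.2 ± 1.65 TPM and its partner Col4a2 at 21.9 ± 0.508 TPM. The next in order were Col15a1 (14.6 ± 1.14), Col27a1 (12.8 ± 2.06) and Col6a1 (11.8 ± 1.08 TPM), each of which overlapped its neighbour between libraries. Among laminins, the beta chain genes Lamb2 (42.0 ± 1.73 TPM) and Lamb3 (40.7 ± 1.95) led and overlapped each other. Lama5, the one alpha chain at a high level, came after them at 33.9 ± 1.80 TPM, and Lamc1, the gamma chain of most laminins, at 19.4 ± 1.45 TPM. Lamb1 was lower, at 4.91 ± 0.466 TPM. Lama3, the alpha chain that Lamb3 joins in the laminin of hemidesmosomes, stood at only 0.0633 ± 0.00577 TPM. Among integrins, the shared beta subunit gene Itgb1 was highest at 113 ± 5.07 TPM. The laminin receptor subunit gene Itga3 (70.7 ± 1.23 TPM) and the collagen receptor subunit gene Itga2 (30.1 ± 1.80) were next and clear of each other, and Itga1 (14.7 ± 2.82) overlapped Itgb5 (12.6 ± 1.16 TPM).

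**Figure D1:**
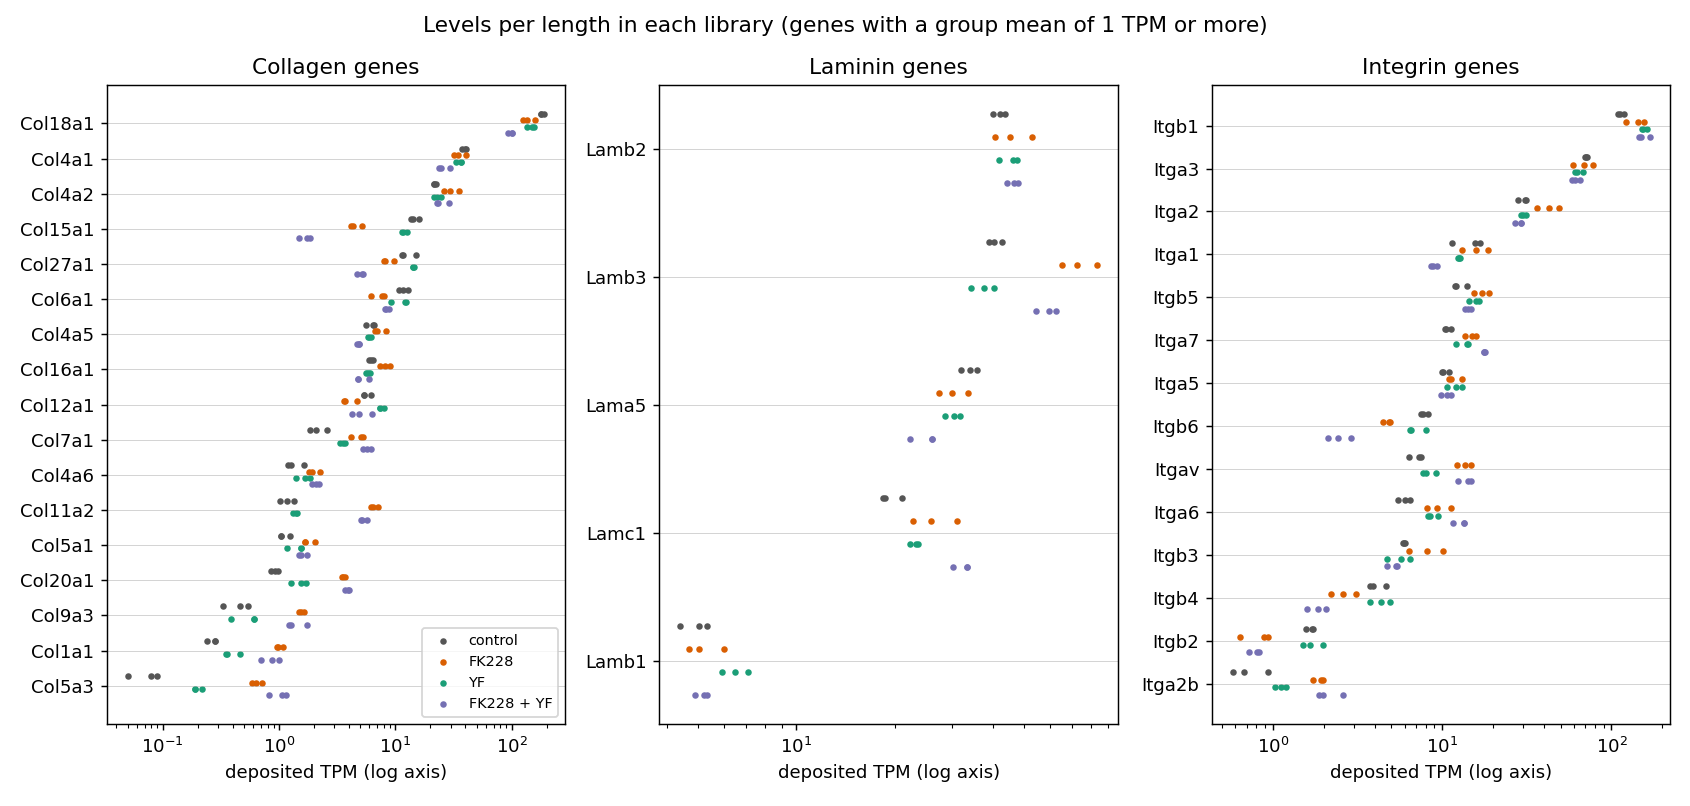
Deposited TPM on a log axis for collagen, laminin and integrin genes with a group mean of 1 TPM or more; each point is a library, in rows for the 4 groups. Col18a1, at 183 TPM in control, stands apart from the other collagens, and Itgb1 leads the integrins at 113 TPM.

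The summed levels of the families moved differently between the groups. Summed collagen TPM was 310 ± 11.2 in control, 271 ± 30.6 with FK228, 275 ± 17.4 for YF and 204 ± 12.3 with the combination. Summed laminin TPM was 148 ± 2.84, 188 ± 23.7, 150.2 ± 7.92 and 173 ± 10.2 in the same order. Summed integrin TPM was 297 ± 11.7, 355 ± 45.5, 343 ± 6.84 and 337 ± 20.8. The collagen sum of the combination lay below every library of the other groups, and the laminin sums with FK228, alone or with YF, lay above every control library. Col18a1 made up 59.0 ± 0.816% of the collagen sum in control, 52.0 ± 0.523% with FK228, 53.5 ± 0.299% for YF and 48.4 ± 1.81% for the combination. These sums are descriptions and were not tested.

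FK228 alone raised more of these genes than it lowered. Fold changes are log2 values ± SE, and calls are at an adjusted p of 0.05 in edgeR's quasi-likelihood test, with adjustment over the 13346 genes. Of the 54 tested, 33 were higher and 9 lower than control (77.8% called), against 68.8% called, 33.2% higher and 35.5% lower among genes tested. The median log2 fold change was 0.56, against -0.02 over the genes tested. By family, 16 of 24 collagens rose and 5 fell, 5 of 9 laminins rose and 1 fell, and 12 of 21 integrins rose and 3 fell. Genes near 0 in control could pass the filter only by being higher elsewhere, and 10 of the 33 were under 1 CPM in control, so these counts are a description. Among the 32 with a mean of 5 CPM or more, 20 rose and 7 fell (median 0.37), against 30.9% and 40.6% of the 10450 genes at that level.

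YF alone moved fewer. It raised 16 and lowered 7 of the 54 (42.6% called), against 32.6% called, 18.0% higher and 14.6% lower among the genes tested, with medians of 0.19 and 0.01. At 5 CPM or more YF gave 9 higher and 7 lower of 32 (median 0.03), against 16.3% and 16.9% of genes at that level. Under 5 CPM, where the filter favours a rise, 7 of 22 rose. With FK228 plus YF, 28 rose and 16 fell against control (81.5% called), against 77.4% called, 38.8% higher and 38.6% lower among the genes tested, with medians of 0.34 and 0.01. At 5 CPM or more the combination gave 14 higher and 13 lower of 32, against 36.4% and 43.2% of genes at that level. Of the genes that rose, 5 of the 16 with YF and 11 of the 28 with both were under 1 CPM in control. These counts too are therefore a description. The 3 comparisons share the control libraries.

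Among the collagens of basement membrane zones, Col18a1 (chr10:77052178-77166530 in GRCm38.p6) stood at 746, 804 and 793 CPM in control, 619, 629.9 and 668 with FK228, 612, 564 and 596 with YF and 419.6, 431 and 445 with FK228 plus YF. The groups did not overlap, and the combination was lowest. Its log2 fold changes were -0.29 ± 0.06 with FK228, -0.40 ± 0.06 with YF and -0.86 ± 0.06 with both, each called lower (edgeR, adjusted p = 0.0002, 2.57e-05 and 2.68e-11). Col15a1 (chr4:47207655-47313167), which encodes the closest relative of the Col18a1 chain, showed the deepest fall of any collagen at 5 CPM or more. It stood at 55.4, 64.2 and 60.9 CPM in control, 20.5, 18.5 and 21.0 with FK228, 47.4, 47.0 and 43.8 with YF and 6.42, 7.27 and 7.76 with FK228 plus YF. The groups ran without overlap from control down to YF, FK228 and both. Its log2 fold change was -1.59 ± 0.08 with FK228, -0.38 ± 0.07 with YF and -3.07 ± 0.09 with both (edgeR, adjusted p = 1.78e-13, 0.000366 and 1.59e-17).

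Fibrillar collagen genes split. Col27a1, a fibrillar chain of cartilage and other tissues, stood at 94.6, 74.2 and 76.9 CPM in control, 59.1, 55.0 and 58.4 with FK228, 83.3, 84.7 and 83.2 with YF and 31.3, 33.0 and 33.6 with FK228 plus YF. YF libraries lay within the control range, FK228 libraries lay below it and the combination lay below both. Its log2 fold change was -0.51 ± 0.07 with FK228 (edgeR, adjusted p = 2.87e-06), 0.03 ± 0.07 with YF (adjusted p = 0.779) and -1.33 ± 0.08 with both (adjusted p = 1.02e-12). Col11a2, a chain of the cartilage collagen XI, went the other way, at 6.08, 4.51 and 5.48 CPM in control, 36.3, 31.6 and 27.7 with FK228, 5.97, 6.18 and 6.06 with YF and 24.3, 26.1 and 23.6 with FK228 plus YF. The 6 libraries with FK228 lay above the 6 without it, and control and YF libraries overlapped. Its log2 fold change was 2.57 ± 0.11 with FK228 and 2.20 ± 0.11 with both (edgeR, adjusted p = 3.78e-14 and 2.1e-13), and 0.18 ± 0.13 with YF (adjusted p = 0.309). Col5a1, a regulatory chain of collagen fibrils, rose by 0.76 ± 0.11 with FK228 and 0.54 ± 0.11 with both (edgeR, adjusted p = 4.54e-06 and 0.000213). Of the 7 fibrillar genes tested, 5 rose and 1 fell with FK228 (71.4% and 14.3%), beside 33.2% and 35.5% of genes tested. The same numbers did so with both, beside 38.8% and 38.6% of genes tested. Among the 5 that rose, Col5a3 and Col11a1 were under 1 CPM in control, where the filter favours a rise, so these counts are a description.

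Several low fibrillar genes, named after their values were seen, also rose. Col5a3 went from 0.375 ± 0.126 CPM in control to 3.52 ± 0.0791 with FK228, 0.976 ± 0.0813 with YF and 5.35 ± 0.824 with both, log2 fold changes of 3.21 ± 0.25, 1.37 ± 0.30 and 3.82 ± 0.24 (edgeR, adjusted p = 3.01e-10, 0.00135 and 3.95e-12). Col1a1, a chain of the collagen of scar, went from 1.33 ± 0.147 CPM to 5.42 ± 0.618 with FK228 and 4.43 ± 0.871 with both, called higher in each (edgeR, adjusted p = 7.63e-09 and 6.07e-08). Its partner Col1a2 held 3 counts in each of the control and FK228 groups, so the chains of collagen I were far apart in level. Col11a1 had 1 count over the control libraries, 26 with FK228, 20 for YF and 33 for the combination. The ratio to control was 27.4 with FK228 (95% exact interval 4.51 to 1130, counting error only). Since Col5a3 and Col11a1 were under 1 CPM in control, where the filter favours a rise, their rises and calls are a description.

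Other collagens followed neither course in full. Col7a1, which forms the anchoring fibrils that tie basement membrane to matrix, stood at 20.3, 14.3 and 16.9 CPM in control, 46.0, 35.8 and 41.1 with FK228, 27.1, 27.6 and 24.9 with YF and 43.6, 49.5 and 46.2 with FK228 plus YF, above control in each library of each treated group. It rose by 1.26 ± 0.11, 0.63 ± 0.11 and 1.44 ± 0.11 with FK228, YF and both (edgeR, adjusted p = 7.07e-09, 0.000257 and 4.94e-10). Col20a1, a collagen of the fibril-associated class, rose by 1.82 ± 0.10, 0.60 ± 0.11 and 1.90 ± 0.10 (edgeR, adjusted p = 2.12e-12, 0.000277 and 3.94e-13). Col6a1, a chain of the beaded filaments of collagen VI, fell with FK228 (-0.61 ± 0.09) and with both (-0.45 ± 0.09). Col12a1, another fibril-associated chain, changed in opposite directions, with -0.41 ± 0.10 for FK228 and 0.39 ± 0.10 for YF (edgeR, adjusted p = 0.00147 and 0.00512). With both treatments it was -0.05 ± 0.10 (adjusted p = 0.624).

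Collagen IV, the network-forming collagen of basement membranes, is encoded in pairs of neighbouring genes that are read away from each other. Col4a1 and Col4a2 lie back to back on chromosome 8, with RefSeq start sites 21 bases apart in GRCm38.p6. From these start sites the outermost 22 transcribed bases of the genes overlap, and the full RefSeq span of Col4a1 reaches further, to base 11312889. The promoter windows below, 250 bases before to 50 after each start, share 78 bases (chr8:11312777-11312854). They are shown because the RNA ratio of the pair differed between groups. Each is 5′ to 3′ on its gene's own strand. Capitals mark matches on either strand to the GC box GGGCGG and to the CCAAT box. The letters TATAAA of a TATA box were searched as well. So was the AP-1 element, spelled TGANTCA.
Col4a1 promoter, chr8:11312777-11313076, minus strand: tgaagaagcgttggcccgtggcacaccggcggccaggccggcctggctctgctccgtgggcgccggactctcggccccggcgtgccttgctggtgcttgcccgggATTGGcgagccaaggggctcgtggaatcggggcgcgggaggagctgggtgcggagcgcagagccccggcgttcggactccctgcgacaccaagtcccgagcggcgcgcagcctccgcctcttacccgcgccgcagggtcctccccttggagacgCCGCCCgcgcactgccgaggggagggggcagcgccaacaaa
Col4a2 promoter, chr8:11312555-11312854, plus strand: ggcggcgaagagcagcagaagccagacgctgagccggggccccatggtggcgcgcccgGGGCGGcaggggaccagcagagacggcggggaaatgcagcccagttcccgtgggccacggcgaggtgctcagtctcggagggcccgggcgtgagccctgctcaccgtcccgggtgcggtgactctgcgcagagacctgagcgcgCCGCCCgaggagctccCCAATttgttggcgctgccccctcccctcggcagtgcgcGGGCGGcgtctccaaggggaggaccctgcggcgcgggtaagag

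The Col4a1 window holds 1 GC box and 1 CCAAT box and the Col4a2 window 3 and 1, and neither holds the TATA or AP-1 letters. The GC box of the Col4a1 window lies in the shared bases and is 1 of the 3 of Col4a2, read on the other strand. Both are rich in G and C (74% and 73.7%). A GC box is found in 35.7% of the 32851 promoters in the RefSeq table and in 53.8% of the 65 promoters of 59 genes described here. A CCAAT box is found in 37.4% and 26.2%, the TATA letters in 13.6% and 7.69%, and the AP-1 letters in 7.81% and 6.15%. The median share of G and C was 52.7% over all promoters and 59% over the 65, and the motif shares were not corrected for it. These matches describe the letters only.

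From this shared start region the pair's RNA diverged. Col4a1 stood at 217, 222 and 216 CPM in control, 206, 209.9 and 224 with FK228, 191, 181 and 192 with YF and 141, 167 and 142 with FK228 plus YF. FK228 libraries overlapped control, YF libraries lay below it and the combination lay lowest. Col4a2 stood at 115, 120.2 and 122 CPM in control, 166, 172 and 191 with FK228, 124, 114 and 118 with YF and 131, 160.3 and 131 with FK228 plus YF. Its FK228 libraries and those of the combination lay above control, and YF libraries overlapped control. Col4a1 changed by -0.04 ± 0.06 with FK228 (edgeR, adjusted p = 0.609), -0.22 ± 0.06 with YF (adjusted p = 0.01) and -0.54 ± 0.06 with both (adjusted p = 7.97e-08). Col4a2 changed by 0.56 ± 0.07 with FK228 (edgeR, adjusted p = 7.4e-07), -0.01 ± 0.07 with YF (adjusted p = 0.962) and 0.24 ± 0.07 with both (adjusted p = 0.0054), the last of which was not called without FK228 plus YF replicate 2 (log2 fold change 0.14, adjusted p = 0.0798).

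On the TPM scale the ratio of Col4a1 to Col4a2 was 1.79 ± 0.057 in control, 1.54 ± 0.0432 with YF, 1.18 ± 0.0351 with FK228 and 1.04 ± 0.0201 with both (SD, n = 3). The libraries of the 4 groups did not overlap. The ratio was not tested. Reads in the shared bases, at least 22, cannot be assigned by strand where counting did not use it. Whether it did is not given in the sources used here. Of the other collagen IV genes, Col4a5 and Col4a6 lie back to back on chromosome X with start sites 1343 bases apart. Col4a5 rose with FK228 (0.34 ± 0.06; edgeR, adjusted p = 8.39e-05) and fell with both (-0.31 ± 0.07; adjusted p = 0.000194), while Col4a6 rose in each (0.65 ± 0.12 and 0.67 ± 0.12; adjusted p = 9.25e-05 and 4.71e-05). Their TPM ratio was 4.59 in control, 3.69 with FK228, 3.72 for YF and 2.32 for the combination. Col4a3 and Col4a4, the chains of specialised basement membranes such as that of the kidney glomerulus, were scarce in control at 16 and 21 counts over 3 libraries. With FK228 they held 105 and 85 counts, ratios of 6.93 (95% exact interval 4.07 to 12.6) and 4.27 (2.63 to 7.25), both called higher. Their control levels, 0.206 and 0.271 CPM, lay within the range of genes that failed the count filter. They passed it through groups where they were higher, so these calls are a description.

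**Figure D2:**
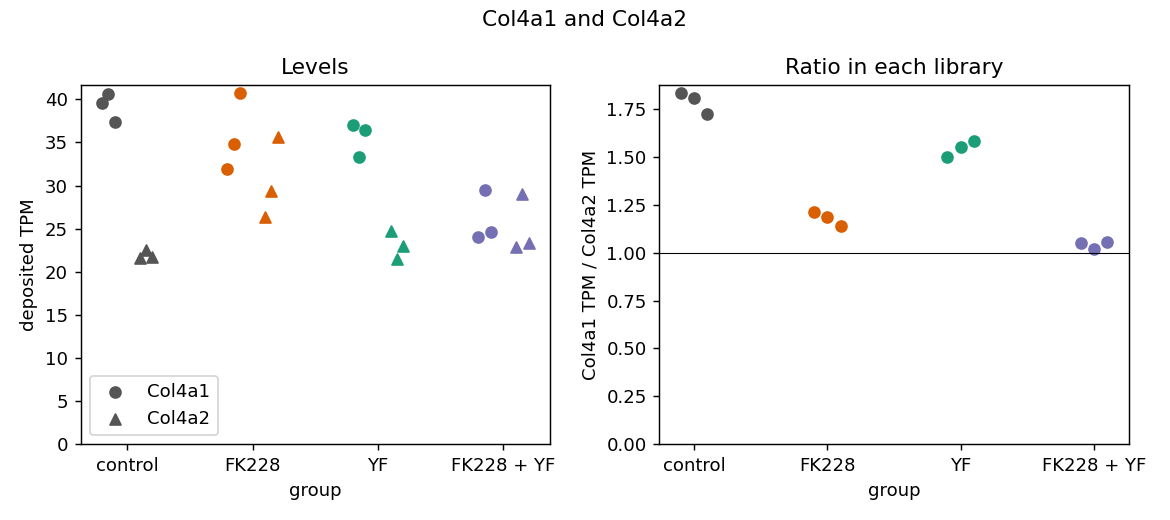
Col4a1 (circles) and Col4a2 (triangles) in deposited TPM, left, and their TPM ratio, right, in each of the 12 libraries by group. The ratio falls from 1.79 in control to 1.04 with FK228 plus YF with no overlap between groups.

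Among the laminins, 3 of 3 beta chains rose with FK228, as did the gamma chains Lamc1 and Lamc3. Of the 3 alpha chains tested, 0 rose and 1 fell in edgeR, with 0 and 1 at an unadjusted p under 0.05. Among all genes tested, 33.2% were higher and 35.5% lower. The Lamb1 rise and the Lama1 fall were not called when some single libraries were left out, as given below, so no contrast of chains is drawn. Lamb3 (chr1:193294353-193343878) stood at 128, 140.3 and 139.5 CPM in control, 251, 261 and 274 with FK228, 125, 112 and 119 with YF and 189.8, 211 and 204 with FK228 plus YF. FK228 libraries lay highest and clear of all others, those of the combination lay between them and control, and YF libraries lay just below control. Its log2 fold change was 0.95 ± 0.06 with FK228 and 0.57 ± 0.06 with both (edgeR, adjusted p = 1.36e-11 and 2.19e-08). With YF alone Lamb3 was called lower (-0.20 ± 0.06; edgeR, adjusted p = 0.016), and that call ended without control replicates 2 or 3 or YF replicates 2 or 3 (log2 fold change -0.20 to -0.16, adjusted p = 0.0509 to 0.0822).

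Lamc1 (chr1:153218922-153332786) stood at 134, 119 and 124 CPM in control, 170.0, 180.3 and 198 with FK228, 140.1, 141 and 141 with YF and 205, 218 and 222 with FK228 plus YF. Here the combination was highest, above each FK228 library. Its log2 fold change was 0.54 ± 0.06 with FK228 and 0.78 ± 0.06 with both (edgeR, adjusted p = 1.12e-07 and 2.26e-10), and the combination was higher than FK228 alone (0.23 ± 0.06; adjusted p = 0.00299). With YF alone the change of Lamc1 was 0.17 ± 0.06 (edgeR, adjusted p = 0.045), and this was not called without control replicates 2 or 3, FK228 replicate 2, YF replicates 1, 2 or 3 or FK228 plus YF replicates 2 or 3 (log2 fold change 0.13 to 0.17, adjusted p = 0.0534 to 0.181). It also ended under RLE size factors, no count filter, the replicate block and DESeq2.

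Lamb2, a beta chain of many adult basement membranes, rose by 0.23 ± 0.06 with FK228 (edgeR, adjusted p = 0.00155), and its 0.18 ± 0.06 with both (adjusted p = 0.00841) was not called without control replicate 1 (log2 fold change 0.13, adjusted p = 0.054). Lamb1, the other common beta chain, rose with YF (0.32 ± 0.08; edgeR, adjusted p = 0.00418). Its 0.19 ± 0.08 with FK228 (adjusted p = 0.048) was not called without control replicate 1, FK228 replicates 2 or 3, YF replicates 1 or 3 or FK228 plus YF replicates 1 or 3 (log2 fold change 0.10 to 0.21, adjusted p = 0.052 to 0.268), nor with the replicate block (0.19, adjusted p = 0.0648).

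Lama5, the main alpha chain, stood at 341, 325 and 323 CPM in control, 307, 314 and 321 with FK228, 285, 270.3 and 278 with YF and 229, 256 and 261 with FK228 plus YF. Every treated library lay below the control range, only just so with FK228, and the combination was lowest. Its log2 fold changes were -0.07 ± 0.06 with FK228 (edgeR, adjusted p = 0.284), -0.25 ± 0.06 with YF (adjusted p = 0.00225) and -0.41 ± 0.06 with both (adjusted p = 1.54e-06). Lama1, an alpha chain of early development, was low and fell from 1.39 ± 0.196 CPM in control to 0.388 ± 0.163 with both (-1.84 ± 0.33; adjusted p = 3.58e-05). Its -0.70 ± 0.29 with FK228 (adjusted p = 0.0377) was not called without control replicates 1 or 2 or FK228 replicates 1, 2 or 3 (log2 fold change -0.78 to -0.57, adjusted p = 0.0509 to 0.132), nor under DESeq2, the replicate block or no count filter. Lama3 was called in no comparison with control (0.32, 0.95 and 0.34), with 95% intervals of -0.81 to 1.44, -0.08 to 1.99 and -0.78 to 1.46. Lamc3 rose with FK228 (0.69 ± 0.20; adjusted p = 0.00403) and was 0.09 ± 0.21 with both (adjusted p = 0.69).

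Itgb1 (chr8:128685654-128733579), the beta subunit shared by most matrix receptors, rose in each treated group. It stood at 407, 383 and 393 CPM in control, 488, 538 and 535 with FK228, 493, 554 and 499 with YF and 530.4, 594 and 534 with FK228 plus YF, and no control library reached the lowest treated library. Its log2 fold changes were 0.40 ± 0.07, 0.39 ± 0.07 and 0.49 ± 0.07 with FK228, YF and both (edgeR, adjusted p = 1.51e-05, 0.000116 and 7.32e-07). The 3 treated groups overlapped one another.

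Of the laminin receptors, Itga6 and Itgb4 are subunits that pair in hemidesmosomes, and their RNA moved apart. Itga6 (chr2:71786886-71858427) stood at 31.3, 29.2 and 28.2 CPM in control, 46.7, 50.4 and 55.6 with FK228, 42.8, 40.9 and 38.3 with YF and 60.8, 68.6 and 68.7 with FK228 plus YF. The groups followed one another without overlap from control to YF to FK228 to both. Its log2 fold changes were 0.78 ± 0.07, 0.46 ± 0.08 and 1.16 ± 0.07 (edgeR, adjusted p = 8.64e-09, 8.92e-05 and 6.63e-12). Itgb4 (chr11:115974725-116008412) stood at 23.5, 18.8 and 20.6 CPM in control, 12.9, 14.3 and 15.5 with FK228, 23.2, 18.6 and 20.9 with YF and 8.51, 10.7 and 9.69 with FK228 plus YF. FK228 libraries lay below control, the combination lay below both, and YF overlapped control. Its log2 fold changes were -0.56 ± 0.11 with FK228 and -1.12 ± 0.11 with both (edgeR, adjusted p = 0.00011 and 9.48e-09), and -0.01 ± 0.10 with YF (adjusted p = 0.973). Itga7, another laminin-binding subunit, rose in the 3 comparisons (0.57, 0.24 and 0.76). Itga3, the most abundant alpha subunit, was 0.06 ± 0.06 with FK228 (adjusted p = 0.323) and fell with YF (-0.22 ± 0.06; adjusted p = 0.00488). Its -0.15 ± 0.06 with both (adjusted p = 0.0236) was not called without control replicate 3 or FK228 plus YF replicates 1 or 3 (log2 fold change -0.14 to -0.12, adjusted p = 0.0543 to 0.0958), nor under the filter of 5 CPM.

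The collagen receptors differed from each other. Itga2 stood at 186, 183 and 175 CPM in control, 251, 279 and 289 with FK228, 173, 173 and 169 with YF and 170.2, 179 and 181 with FK228 plus YF. Only the FK228 libraries lay above the rest, by 0.59 ± 0.06 against control (edgeR, adjusted p = 9.79e-09), while the combination was -0.04 ± 0.06 (adjusted p = 0.556; 95% interval -0.15 to 0.07). Itga1 fell with both (-0.67 ± 0.10; edgeR, adjusted p = 5.74e-06) and was 0.21 ± 0.09 with FK228 (adjusted p = 0.056). Its -0.29 ± 0.09 with YF (adjusted p = 0.0238) was not called without control replicates 1 or 2 or YF replicates 1, 2 or 3 (log2 fold change -0.31 to -0.20, adjusted p = 0.0549 to 0.104), nor in a fit to the compared groups only.

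The RGD-binding receptors split by subunit. Itgav, the alpha subunit of several of them, stood at 45.5, 44.2 and 40.2 CPM in control, 85.3, 89.2 and 88.6 with FK228, 51.8, 47.6 and 44.8 with YF and 79.0, 87.1 and 92.7 with FK228 plus YF. The 6 libraries with FK228 lay above the 6 without. Its log2 fold change was 1.02 ± 0.07 with FK228 and 0.99 ± 0.07 with both (edgeR, adjusted p = 4.38e-11 and 2.8e-11), and 0.15 ± 0.07 with YF (adjusted p = 0.114). Itgb6 (chr2:60598292-60722603), an epithelial partner of Itgav that binds latent TGF-beta, stood at 28.6, 29.3 and 33.1 CPM in control, 20.0, 20.3 and 18.9 with FK228, 23.3, 30.2 and 23.9 with YF and 9.92, 11.4 and 8.52 with FK228 plus YF. FK228 libraries lay below control and those of the combination lowest, while 1 YF library lay within the control range. Its log2 fold changes were -0.62 ± 0.10 with FK228 and -1.61 ± 0.11 with both (edgeR, adjusted p = 2.1e-05 and 2.86e-11), and -0.23 ± 0.10 with YF (adjusted p = 0.082). Of the other partners of Itgav, Itgb5 rose by 0.63 ± 0.07 with FK228, 0.34 ± 0.07 with YF and 0.35 ± 0.07 with both. Itgb3 rose with FK228 (0.55 ± 0.10; edgeR, adjusted p = 7.16e-05) and was -0.16 ± 0.10 with both (adjusted p = 0.147).

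**Figure D3:**
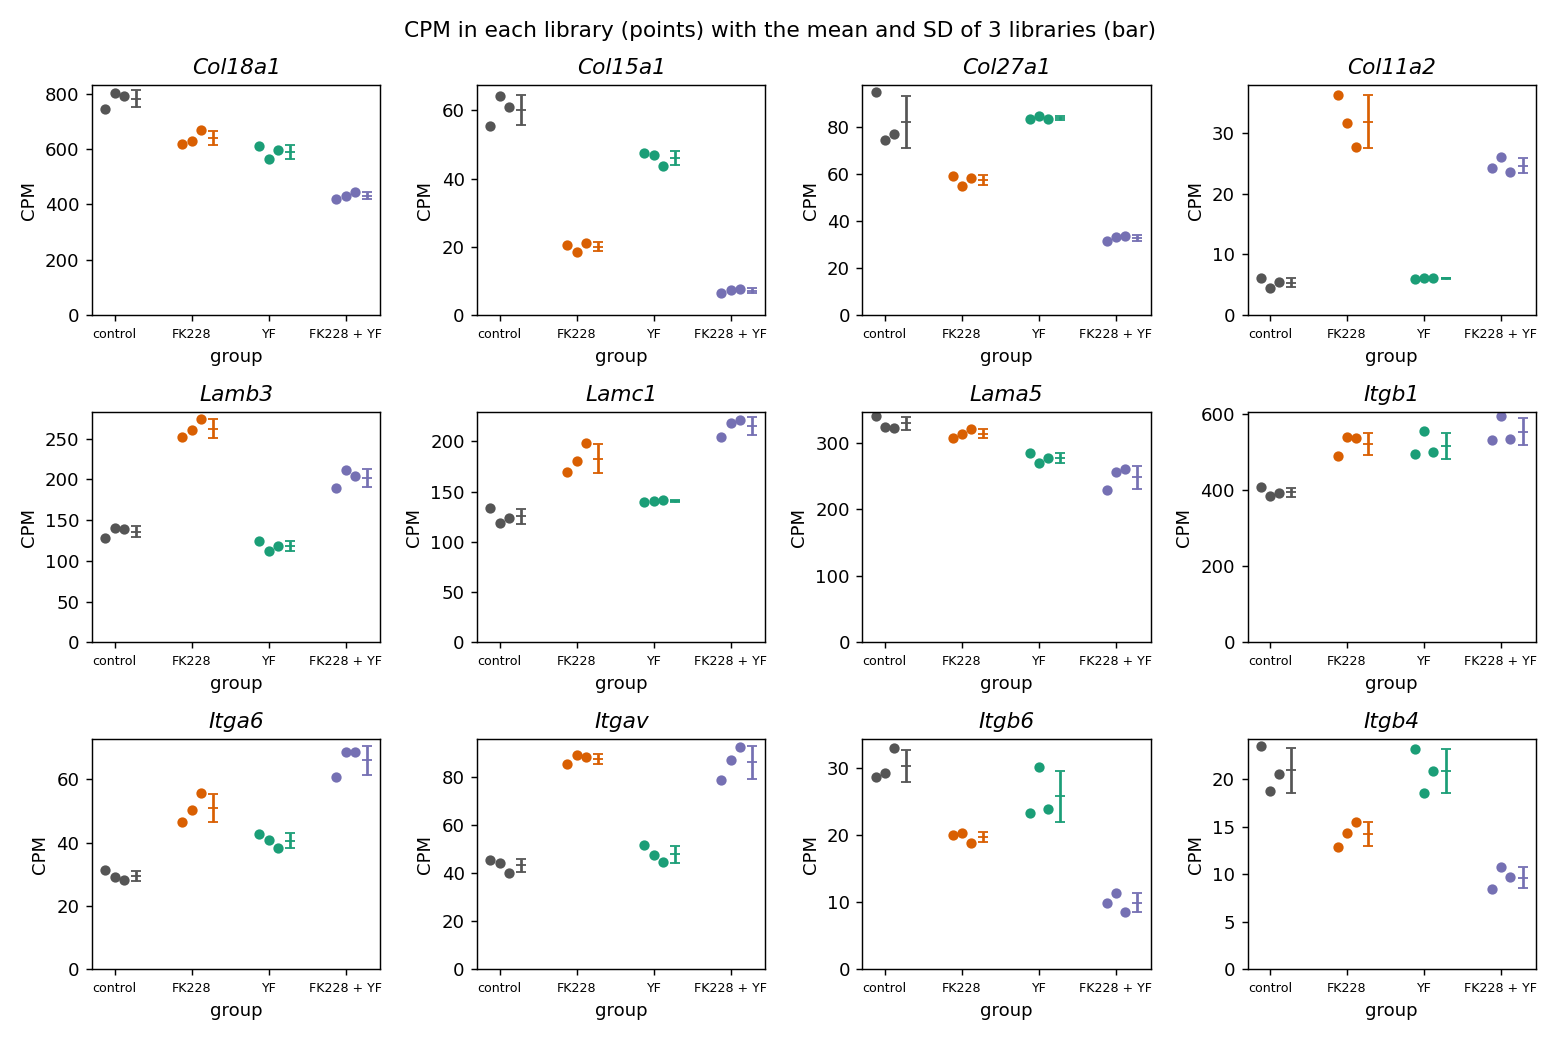
CPM of 12 genes in each library (points), with the mean and SD of the 3 libraries of a group (bars), on axes that start at 0. Col15a1, Col27a1, Itgb6 and Itgb4 are lowest with FK228 plus YF, while Itga6 and Lamc1 are highest there and Lamb3 is highest with FK228 alone.

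The leukocyte integrins were low, and 4 of them were named after their values were seen. Itgam, a myeloid subunit, went from 0.438 ± 0.189 CPM in control to 1.96 ± 0.162 with FK228 and 0.994 ± 0.281 with both, called higher in each (edgeR, adjusted p = 5.56e-06 and 0.00505). Itgb2, the beta subunit that Itgam needs, fell from 3.77 ± 0.229 CPM to 1.99 ± 0.276 and 1.83 ± 0.159 (edgeR, adjusted p = 0.000114 and 2.38e-05). Itgax had 0 counts over the control libraries and 1 over those given FK228 alone, but 30 with YF and 40 with FK228 plus YF. Against a floor of 3 counts over the control group this was at least 9.96-fold higher with YF and at least 14.2-fold with both. Itgb7 had 8 counts in control, 62 with YF (ratio 7.72, 95% exact interval 3.68 to 18.7) and 47 with both (6.27, 2.94 to 15.4). Itgam, Itgax and Itgb7 were under 1 CPM in control, where the filter favours a rise, so their rises are a description. Some of these and other genes share exonic bases with a second annotated gene: Itgam 3450 with Gm49368, Itga1 685 with Gm49395, Itgav 634 with Gm13684, Col4a3 563 with C430014B12Rik and Itgb4 537 with B230344G16Rik. Their counts are uncertain to that extent.

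For 22 of these genes the effect of FK228 was lower with YF than without it. This difference was tested as an interaction, the FK228 effect with YF minus that without. In edgeR it was called lower for those 22 of the 54 tested genes and higher for 0, and DESeq2 called 21 lower and 0 higher. At an unadjusted p under 0.05 the higher count was 1 (Col6a1, 0.32 ± 0.13). The share called was 40.7%, against 26.5% called, 11.1% higher and 15.3% lower among the genes tested. The median was -0.49 for these genes and -0.04 over the genes tested, and 50 of the 54 values were below 0. The 22 were 12 of 24 collagens, 2 of 9 laminins and 8 of 21 integrins. Genes near 0 in control could pass the filter only by being higher elsewhere, so the median and the 50 are a description. For genes under 5 CPM the median was -0.95, with 3 called lower. At 5 CPM or more, 19 of 32 were called lower, against 16.0% lower and 13.5% higher among genes at that level. The medians there were -0.33 and -0.02.

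A lower effect took several forms. For 4 genes that fell with FK228 the fall was deeper with YF. Col15a1 went from -1.59 without YF to -2.69 with it, a difference of -1.10 ± 0.12 (edgeR, adjusted p = 1.08e-06). Col27a1 went from -0.51 to -1.36 (adjusted p = 6.49e-06), Itgb6 from -0.62 to -1.37 (adjusted p = 0.00107) and Itgb4 from -0.56 to -1.11 (adjusted p = 0.0119). For 8 genes the rise with FK228 was called without YF and not called with it. Itga2 went from 0.59 to 0.04 (adjusted p = 4.52e-05), Itgb5 from 0.63 to 0.00 (adjusted p = 9.4e-05) and Col16a1 from 0.50 to -0.05 (adjusted p = 0.00121). Col4a5 and Lamb1 rose with FK228 without YF and fell with it: Col4a5 from 0.34 to -0.20 (adjusted p = 0.000197) and Lamb1 from 0.19 to -0.20 (adjusted p = 0.0171). The Lamb1 fall was not called without YF replicates 1 or 3 or FK228 plus YF replicates 2 or 3 (log2 fold change -0.21 to -0.16, adjusted p = 0.0628 to 0.13), nor under RLE size factors, the filter of 5 CPM or DESeq2, and its rise depended on the libraries and the block named with the laminins. Col4a1 and Itga1 were not called without YF (-0.04 and 0.21) and fell with it (-0.33 and -0.38). The other 6 rose on both sides and less with YF, as did Col11a2, from 2.57 to 2.02 (adjusted p = 0.0158), a difference not called without control replicate 2 (log2 fold change -0.44, adjusted p = 0.0526).

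Genes whose FK228 response was not called different with YF included Lamc1 (0.07 ± 0.09, 95% interval -0.10 to 0.24), Itga6 (-0.08 ± 0.10, -0.29 to 0.12), Itgav (-0.17 ± 0.10, -0.36 to 0.02) and Lamb3 (-0.18 ± 0.09, -0.35 to -0.01, edgeR adjusted p = 0.125). The direct comparison of the combination with FK228 alone called 6 of the 54 higher and 22 lower (51.9% called), against 52.9% called, 26.6% higher and 26.3% lower among the genes tested. Col15a1 (-1.48 ± 0.09; edgeR, adjusted p = 7.18e-11), Itgb6 (-0.99 ± 0.11; adjusted p = 4.42e-07) and Itga1 (-0.88 ± 0.10; adjusted p = 8.13e-07) fell, and Itga6 rose (0.38 ± 0.07; adjusted p = 0.000171). FK228 against YF gave 28 higher and 10 lower (70.4% called), against 61.2% called, 27.8% higher and 33.3% lower. The combination against YF gave 19 higher and 15 lower (63.0% called), against 70.6% called, 34.7% higher and 35.9% lower.

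**Figure D4:**
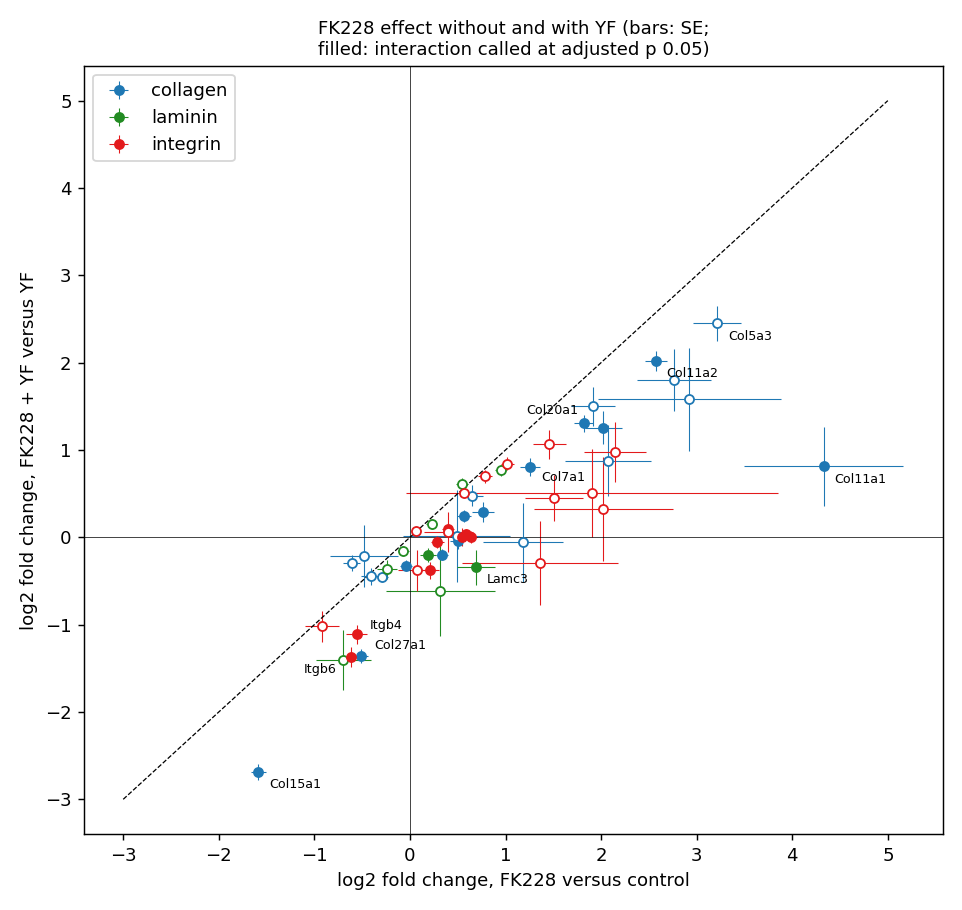
Log2 fold change for FK228 without YF (x axis) and with YF (y axis) for the 54 tested genes, with SE bars; filled points are the 22 with a called interaction, and the dashed line marks equal effects. All but 4 points lie below the line, Col15a1 at -1.59 and -2.69.

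The other genes of the pathway were read from lists of ligands, enzymes and adhesion proteins. Their counts stand against 33.2% higher and 35.5% lower among the genes tested with FK228, 18.0% and 14.6% with YF, and 38.8% and 38.6% with both. Of 21 tested matrix partners of these families, 11 rose and 6 fell with FK228 (52.4% and 28.6%), 9 and 3 with YF (42.9% and 14.3%), and 11 and 7 with both (52.4% and 33.3%). Fn1, fibronectin, the RGD ligand of Itgav and Itga5 receptors, rose from 411 ± 22.8 CPM in control cells to 999.7 ± 79.3 under FK228, to 868 ± 75.0 under YF and to 896 ± 80.2 under the combination. Ccn2, a matricellular ligand of integrins, rose by 2.59 ± 0.11 with FK228 and 2.57 ± 0.11 with both, and Fbln2, a basement membrane protein, by 2.02 ± 0.07 and 2.08 ± 0.07. Ntn4, which binds laminins, fell with both (-1.87 ± 0.12). Tnc, an anti-adhesive matrix protein, rose with YF (1.26 ± 0.09) and fell with both (-0.77 ± 0.09).

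Of 18 tested genes for collagen folding and modification, 9 rose and 2 fell with FK228 (50.0% and 11.1%, beside 33.2% and 35.5% of genes tested), 4 and 2 with YF (22.2% and 11.1%, beside 18.0% and 14.6%), and 10 and 4 with both (55.6% and 22.2%, beside 38.8% and 38.6%). Plod2 and P4ha1, which hydroxylate lysine and proline of collagen chains, rose with FK228 by 1.40 ± 0.09 and 1.20 ± 0.09. Serpinh1, the collagen chaperone, fell with both (-1.37 ± 0.07). Of 8 genes for processing and crosslinking, 1 rose and 5 fell with FK228 (12.5% and 62.5%), 1 and 2 with YF (12.5% and 25.0%), and 0 and 6 with both (75.0% lower), beside 35.5%, 14.6% and 38.6% lower among the genes tested. For the 0, the count at an unadjusted p under 0.05 was also 0. Pcolce, an enhancer of procollagen cleavage, fell with FK228 (-1.0 ± 0.06) and with both (-1.24 ± 0.06), and Tgm2, a crosslinking transglutaminase, fell with both (-1.14 ± 0.07).

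Of 22 matrix proteases and inhibitors, 10 rose and 7 fell with FK228 (45.5% and 31.8%, beside 33.2% and 35.5% of genes tested), 11 and 1 with YF (50.0% and 4.55%, beside 18.0% and 14.6%), and 12 and 7 with both (54.5% and 31.8%, beside 38.8% and 38.6%). Mmp14, a membrane collagenase, fell with FK228 (-2.00 ± 0.09) and with both (-2.59 ± 0.09). Plat, a plasminogen activator, rose in the same comparisons by 1.47 ± 0.06 and 2.42 ± 0.06. Of 33 adhesion complex genes, 11 rose and 11 fell with FK228 (33.3% each) and 6 and 6 with YF (18.2% each), shares near those of genes tested, and 10 and 15 with both (30.3% and 45.5%). Fermt1, the epithelial kindlin that activates integrins, fell with FK228 (-1.72 ± 0.08) and with both (-2.56 ± 0.08), and Parva, which links integrins to actin, fell with both (-1.67 ± 0.08). Actn1, an actin crosslinker, rose by 1.06 ± 0.08 with FK228. Of 15 other matrix receptors, 3 rose and 6 fell with FK228 (20.0% and 40.0%), 3 and 5 with YF (20.0% and 33.3%), and 4 and 9 with both (26.7% and 60.0%). Cd151, a tetraspanin partner of laminin-binding integrins, fell with FK228 and with both (-0.60 ± 0.05 and -0.85 ± 0.05), and Lrp1, an endocytic receptor, rose by 1.82 ± 0.11 and 1.72 ± 0.11. The median log2 fold changes with FK228 were 0.36 for matrix partners, 0.20 for folding, -0.43 for processing, 0.24 for proteases and -0.02 each for adhesion complex and other receptors, against -0.02 over the genes tested. In the interaction, the matrix partner list gave 12 lower of 21 and 0 higher (also 0 at an unadjusted p under 0.05), and the adhesion complex list gave 13 lower and 4 higher of 33, against 15.3% lower and 11.1% higher among the genes tested.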

How the data were processed

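Total RNA of AML12 cells was sequenced as paired ends on a BGISEQ platform, per the labels. The deposited table holds, per the file headers, expected counts, FPKM and TPM per gene. The authors made the estimated counts before deposit, unscaled, and 16.6% of the values are not whole. Per the submitters' processing notes, the build was GRCm38.p6 and the tools included RSEM 1.2.12 beside Bowtie2 2.2.5, with HISAT2 2.0.4 and DESeq2 1.4.5 also listed. Annotation and strand use: not given in the sources used here. The deposited TPM values were used to order genes by level and the deposited FPKM values as its alternative.

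Counts were rounded, filtered with filterByExpr, scaled by TMM and fitted by edgeR 4.0.16 (with limma 3.58.1, in R 4.3.3), each group being 1 term of a model over 12 libraries. The threshold for a call is 0.05 after Benjamini-Hochberg adjustment over 13346 genes. CPM use TMM factors. Each SE is the absolute log2 fold change divided by the square root of the F statistic of the quasi-likelihood test. The 95% intervals of log2 fold changes take that SE and the normal distribution. Ratios of few counts have 95% exact intervals, which cover counting error alone, since reads without molecular identifiers are not independent molecules. A floor of 3 counts stands for 0. The code was tested on simulated counts. Libraries of a group differed by more than sampling noise, so none was counted as a copy.

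The members and the gene lists were chosen with earlier results of these data known. Named were the collagen IV and laminin chains, Itgb1, and up to 6 called genes of 5 CPM or more with the highest and 6 with the lowest change per family against control (3 in other comparisons and per list), and Fn1. Col5a3, Col1a1, Col11a1, Itgam, Itgb2, Itgax, Itgb7 and the interaction calls outside that rule were added after seeing values. Gene positions are those of RefSeq, and exon overlaps are those of the GENCODE annotation of that build. Values of some single genes that met the rule are not reported here. RefSeq promoters of GRCm38.p6 matched 59 of the 82 genes. Alternatives were DESeq2 1.42.0, RLE size factors, leaving out each library, a replicate block, a fit to the compared groups, and either no filter or at least 5 CPM in 3 libraries.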

Additional observations from a re-analysis of the deposited data

Results flagged for a closer look

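For 22 genes the effect of FK228 differed with and without YF, by a test of the difference itself (edgeR interaction, adjusted p under 0.05). All 22 differences were negative.

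Among collagens, the log2 difference was -3.52 for Col11a1 and -1.10 for Col15a1. It was -0.85 for Col27a1, -0.77 for Col1a1, and -0.55 for both Col11a2 and Col16a1. It was -0.54 for Col4a5, -0.51 for Col20a1 and -0.47 for Col5a1. It was -0.45 for Col7a1, -0.32 for Col4a2 and -0.29 for Col4a1. Col11a1 rests on 1 control count, and its call ended without control replicate 2 (log2 fold change -3.07, adjusted p = 0.0524). That of Col4a1 ended without FK228 plus YF replicates 1 or 3 (log2 fold change -0.25, adjusted p = 0.0615 to 0.064), and that of Col4a2 without FK228 replicate 3, YF replicate 1 or FK228 plus YF replicates 1 or 3 (log2 fold change -0.29 to -0.26, adjusted p = 0.0647 to 0.078). The call of Col1a1 ended without control replicates 1, 2 or 3, FK228 replicates 1 or 2, YF replicates 1 or 3 or FK228 plus YF replicates 2 or 3 (log2 fold change -0.83 to -0.64, adjusted p = 0.054 to 0.114), and also with the replicate block (adjusted p = 0.0554) and in DESeq2 (adjusted p = 0.0749). That of Col5a1 ended without control replicates 2 or 3, FK228 replicate 3, YF replicates 1 or 3 or FK228 plus YF replicates 1 or 2 (log2 fold change -0.46 to -0.42, adjusted p = 0.0653 to 0.0941), that of Col7a1 without control replicates 2 or 3, FK228 replicates 1 or 3, YF replicates 1 or 2 or FK228 plus YF replicates 1 or 3 (log2 fold change -0.45 to -0.33, adjusted p = 0.0592 to 0.081) and that of Col11a2 without control replicate 2 (log2 fold change -0.44, adjusted p = 0.0526).

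Among laminins, the difference was -1.03 for Lamc3 and -0.39 for Lamb1. Among integrins, it was -0.75 for Itgb6, -0.63 for Itgb5, -0.59 for Itga1, -0.55 for Itga2 and Itgb4, -0.54 for Itgb3, -0.34 for Itga5 and -0.30 for Itgb1. The call of Itgb1 ended without FK228 replicate 2, YF replicate 2 or FK228 plus YF replicates 1 or 3 (log2 fold change -0.28 to -0.25, adjusted p = 0.052 to 0.0581).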

How the results depend on the processing

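The counts of members called were within 1.5 times their reported value under each alternative, except that FK228 plus YF against control gave 26 (16 higher and 10 lower of 34 tested) under the filter of 5 CPM in 3 libraries, where fewer genes were tested. Leaving out 1 library gave 39 to 44 members called for FK228, 19 to 23 for YF and 40 to 44 for both against control. It gave 29 to 34 for both against YF, 26 to 30 for both against FK228, 36 to 39 for FK228 against YF and 17 to 22 for the interaction. Libraries with the same replicate number did not deviate together (18 correlations of -0.215 to 0.0887), and 1 of 12 libraries correlated best with its own number, so the numbers do not pair them. With the replicate block the members called were 40, 22 and 44 against control, 34, 28 and 38 in the other pairs and 21 in the interaction, in the order above. Of the 223 gene values recomputed under up to 18 alternatives, 3827 results kept their side of the threshold, 114 fell below it, 2 rose past it and 10 changed sign. The sign changes were all of values not called: Col4a2 with YF (0.0012338 under the 5 CPM filter, 0.0061977 with the compared groups only, and 0.012438, 0.023693 and 0.00037493 without control replicate 3, YF replicate 2 and YF replicate 3), Lamb2 with YF (-0.022748), Col4a1 with FK228 (0.0050862), Lama3 with FK228 (-0.26178) and with both (-0.27249), and Lamc3 with both (-0.030487). Over the libraries left out in turn, these values reached 0.62123 and 0.84113 (Lama3 with FK228 and with both), -0.074352 (Col4a1 with FK228), -0.038655 and 0.052811 (Col4a2 and Lamb2 with YF) and 0.26003 (Lamc3 with both) at the other end. The cause was not tested. RLE size factors shifted the median of all genes by at most 0.0427. The order of 32 genes of 1 TPM or more in control was the same by FPKM. Depth limits the genes of few counts, where the exact intervals are wide, and the 28 genes under the filter were not put to the edgeR test.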
